A study of Drosophila melanogaster with 2 samples.

Results

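The 8 genes described here are regulators of the Drosophila mesoderm, taken by name: twi, sna, Mef2, tin, bap, bin, htl and how. They are 8 of the 13968 protein-coding genes of the annotation. Of the 8, htl encodes a receptor and how an RNA-binding protein, and the other 6 encode transcription factors. Every peak whose summit lay in a gene body or in the 10 kb on either side was counted, which gave 17 of the 6054 peaks of the thresholded list and 104 of the 30000 entries of the pooled relaxed list. The peaks come from chromatin immunoprecipitation with sequencing (ChIP-seq) of Bicoid. Its mRNA is laid down by the mother at the anterior pole of the egg, and the protein is a homeodomain factor that directs head and thorax formation. The 2 libraries, replicate 1 and replicate 3, formed 1 group. Both were whole embryos, males and females mixed, 0 to 24 hours old, of strain 1T-GFP. This transgenic line stably carries bcd with GFP at the C terminus of the protein, called bcd-eGFP in the labels, and an antibody against GFP was used for the precipitation. The labels do not say whether untagged Bicoid was also made, and the control experiment they name was not analysed here. Because whole embryos of all stages were pooled, a peak cannot be assigned to a tissue or a stage. There was no second condition, so no test between groups was made, and the members are described beside the share of all genes or all peaks.

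In the fly embryo the mesoderm arises from the most ventral cells, where the bHLH factor Twist and the zinc finger factor Snail set the fate before the cells invaginate. Heartless, a fibroblast growth factor (FGF) receptor, then acts in their spreading over the ectoderm, and the homeodomain factor Tinman specifies the dorsal mesoderm, from which heart and gut muscle derive. Bagpipe and the forkhead factor Biniou act in the visceral branch, the MADS-box factor Mef2 drives muscle differentiation, and How is an RNA-binding protein of muscle and tendon cells. In the authors' lists the irreproducible discovery rate (IDR) procedure separates the thresholded peaks from the relaxed entries, which include background. The signal is the value of the authors' peak caller, and ranks count from the highest signal within 1 list. Read counts are not part of these lists and library depth is therefore unknown. A site without an entry may still be bound.

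An IDR summit lay in the window of 5 of the 8 genes, namely Mef2, tin, bin, htl and how, and of none of twi, sna and bap. Of all protein-coding genes 68.3% had one in the same kind of window, so the count of members is near the background. Window length differed among the members. Among the 5 members shorter than 10 kb (sna, tin, bap, bin and htl) 3 had an IDR summit, beside 66.2% of all genes of that length. Among the 3 longer ones (twi, Mef2 and how) 2 had one, beside 80.9%. The same 5 members also had a summit among the 3027 strongest IDR entries, where the background was 50.8%. In the pooled relaxed list all 8 had an entry, beside 92.8% of genes. In the list of replicate 1, 6 of the 8 had an entry, beside 94.1%, and in that of replicate 3 all 8 did, beside 93.5%. The 2 without an entry in replicate 1 were sna and bap.

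**Figure D1:**
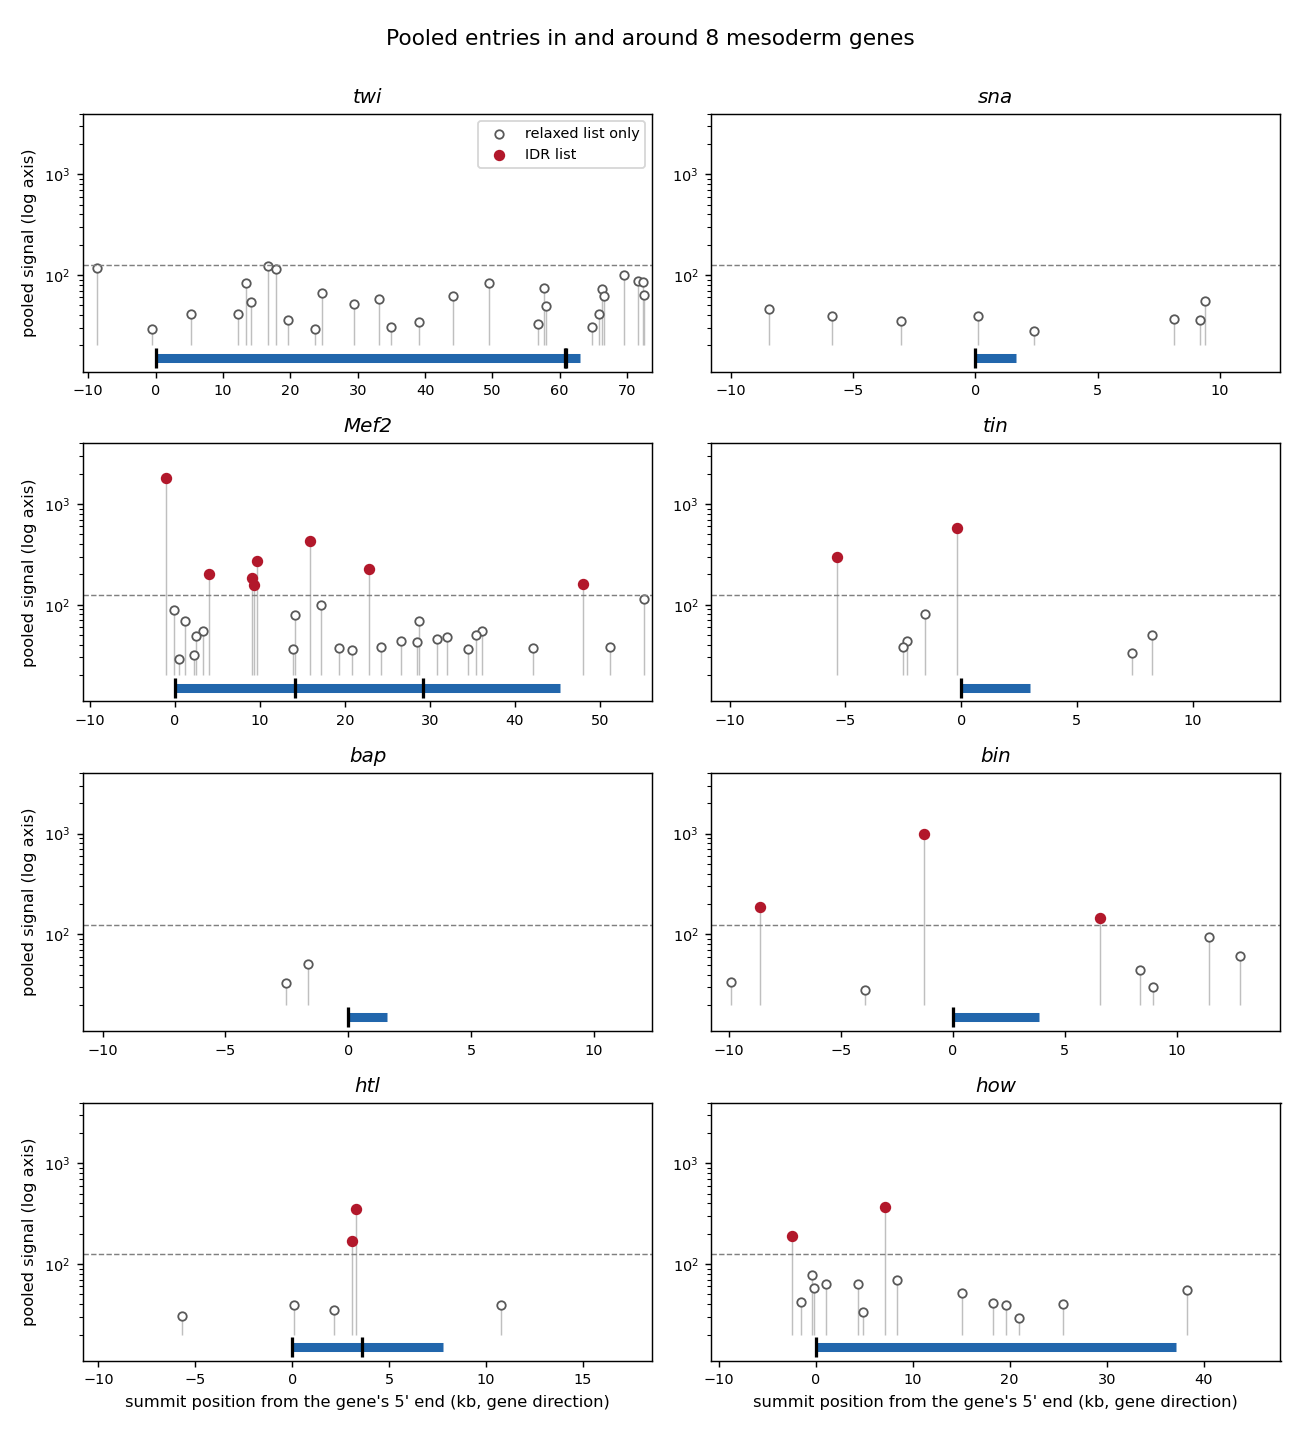
Each point is an entry of the pooled relaxed list, placed by the distance of its summit from the annotated 5' end of the gene (kb, in the gene's direction) and by the pooled signal (log axis). Red points are in the IDR list, white ones in the relaxed list only, the dashed line is the lowest IDR signal (125), and the blue bar is the gene with its TSSs as black ticks. Mef2 has 8 red points, bin 3, and tin, htl and how 2 each, while all 28 points of twi lie under the line.

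The order of the members by their strongest pooled entry was Mef2 (rank 49), bin (243), tin (717), how (1464), htl (1571), twi (6095), sna (13728) and bap (15302). In replicate 1 the strongest entries had the ranks 30 for Mef2, 421 for bin, 907 for tin, 1701 for how, 1733 for htl and 4673 for twi. In replicate 3 they were 84 for Mef2, 171 for bin, 640 for tin, 1444 for how, 1659 for htl, 4974 for twi, 10028 for sna and 16052 for bap. The order was thus the same in both replicates for the 6 genes with an entry in each. The genes how and htl, next to each other in this order, had close ranks in all 3 lists. The strongest entry of twi need not be the same site in each list.

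**Figure D2:**
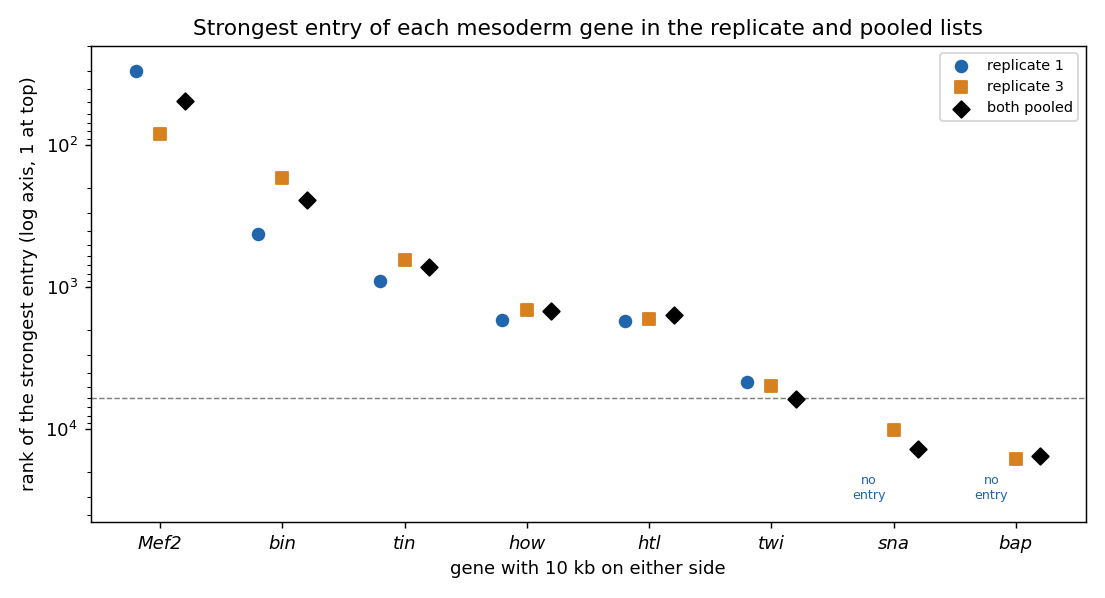
The rank of the strongest entry in the gene or 10 kb on either side (log axis, rank 1 at the top) is plotted for each gene in replicate 1, replicate 3 and the pooled list. The dashed line is rank 6054, the size of the IDR list. Mef2, bin, tin, how and htl lie above the line in all 3 lists, and sna and bap have no entry in replicate 1.

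The peaks that carry the strongest signals of tin, bin, htl and how are shown here by their summit and the 100 bp on either side, on the gene's own strand (dm6; Release 6 sequence from RefSeq). Capitals mark the words searched: TAATCC of Bicoid, the E-boxes CATATG and CACATG of Twist, CAGGTG of Snail, TCAAGTG of the NK-2 class to which Tinman and Bagpipe belong, TAAACA of forkhead factors, the MEF2 box, CAGGTA of Zelda, TATCGATA of DREF, GGTCACAC of M1BP and TATAAA, each on either strand. The windows of htl lie in the same intron and are both shown because their peaks overlap, and the upstream peak of how is shown for its Snail word.
tin promoter, chr3R:21378684-21378884, + strand: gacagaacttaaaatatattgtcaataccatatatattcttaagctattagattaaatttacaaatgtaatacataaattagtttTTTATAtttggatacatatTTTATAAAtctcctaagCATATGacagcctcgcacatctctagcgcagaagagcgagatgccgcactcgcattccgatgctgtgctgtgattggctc
bin upstream, chr3L:6989230-6989430, + strand: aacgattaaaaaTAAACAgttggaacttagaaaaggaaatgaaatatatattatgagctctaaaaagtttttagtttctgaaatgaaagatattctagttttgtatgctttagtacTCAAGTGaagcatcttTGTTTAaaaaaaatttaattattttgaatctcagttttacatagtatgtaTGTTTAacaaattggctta
htl intron, stronger summit, chr3R:18049614-18049814, - strand: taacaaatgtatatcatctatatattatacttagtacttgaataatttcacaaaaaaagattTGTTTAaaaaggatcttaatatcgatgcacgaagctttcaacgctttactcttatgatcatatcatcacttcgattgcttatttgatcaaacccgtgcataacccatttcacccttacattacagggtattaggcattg
htl intron, weaker summit, chr3R:18049820-18050020, - strand: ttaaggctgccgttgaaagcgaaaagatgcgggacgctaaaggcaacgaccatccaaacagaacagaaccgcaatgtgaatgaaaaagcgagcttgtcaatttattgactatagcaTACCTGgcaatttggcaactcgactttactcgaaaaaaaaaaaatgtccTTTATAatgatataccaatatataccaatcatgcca
how intron, chr3R:22049226-22049426, + strand: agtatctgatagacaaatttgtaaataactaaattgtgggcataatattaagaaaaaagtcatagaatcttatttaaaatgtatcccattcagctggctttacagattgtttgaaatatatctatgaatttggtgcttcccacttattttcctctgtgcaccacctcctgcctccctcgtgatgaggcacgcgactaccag
how upstream, chr3R:22039598-22039798, + strand: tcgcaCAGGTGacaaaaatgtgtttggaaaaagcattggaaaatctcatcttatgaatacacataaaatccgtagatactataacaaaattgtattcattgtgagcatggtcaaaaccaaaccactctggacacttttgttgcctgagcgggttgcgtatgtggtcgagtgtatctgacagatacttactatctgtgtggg

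The tin sequence holds CATATG at bases 122 to 127 and 3 copies of TATAAA, at bases 86 to 91, 105 to 110 and 107 to 112, the last 2 overlapping each other on opposite strands. The bin sequence holds TCAAGTG at bases 117 to 123 and TAAACA at bases 13 to 18, 133 to 138 and 183 to 188. In the window of the stronger htl summit TAAACA lies at bases 63 to 68. In that of the weaker one, CAGGTA lies at bases 117 to 122 and TATAAA at 166 to 171. The upstream peak of how holds CAGGTG at bases 6 to 11, and its intronic peak holds none of the 11 words.

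tin, the homeobox gene of the dorsal mesoderm and heart (FBgn0004110, 3R:21378977 to 21381970), had its stronger peak at its own promoter. This peak, at 3R:21378608 to 21378924, had a signal of 226 in replicate 1 (rank 907), 343 in replicate 3 (rank 640) and 572 in the pooled list (rank 717). Its summit was 193 bp upstream of the TSS of tin, and the log2 of replicate 1 over replicate 3 was -0.60. The second IDR peak in the window, at 3R:21373507 to 21373709, lay 5381 bp upstream in an intron of mod(mdg4), which encodes a chromatin protein. Its signal was 161 in replicate 1, 135 in replicate 3 and 296 in the pooled list. It was 21 bp from the annotated starts of 3 pre-mod(mdg4) genes, which are trans-spliced parts of the same locus. The remaining 5 entries of tin were at ranks 9491 to 24565, all outside the IDR list.

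bap, a homeobox gene of the visceral mesoderm (FBgn0004862, 3R:21388880 to 21390449), is the neighbour of tin, and 13.1 kb of their windows are shared. It had 2 entries in the pooled list, 1650 and 2540 bp upstream of its TSS, and both lie in the window of tin too. Their ranks were 15302 and 24565 and their signals 50.4 and 33.3. The first had no entry in replicate 1 and a signal of 29.5 in replicate 3, and the second had no entry in either. The tin promoter peak is the IDR peak next to bap, and its summit lay 96 bp outside the bap window. Counting peak intervals in place of summits would therefore give bap an IDR peak.

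bin, the forkhead gene of the visceral mesoderm (FBgn0045759, 3L:6990622 to 6994447), had 3 IDR peaks, all intergenic. The strongest, at 3L:6989036 to 6989596, lay 1292 bp upstream of its TSS, with a pooled signal of 981 (rank 243). In replicate 1 the same 561 bp held 2 entries, with signals of 345 and 293 (ranks 421 and 580), whose summits lay 1397 and 1197 bp upstream. In replicate 3 it was a single entry with a signal of 638 (rank 171). The other peaks were weaker, and both lay nearer to other genes. The first, at 3L:6981785 to 6982208 and 294 bp from where lncRNA:CR46000 starts, had a signal of 45.3 in replicate 1 (rank 8562), 148 in replicate 3 (rank 2441) and 187 in the pooled list. The second, at 3L:6996965 to 6997388 and 1666 bp from the start of the collagen gene Mp, had a signal of 23.6 in replicate 1 (rank 17471), 107 in replicate 3 (rank 3681) and 146 in the pooled list. The log2 of replicate 1 over replicate 3 was -1.71 and -2.19, and both peaks lay outside the 6054 strongest entries of replicate 1. The strongest peak was A and T rich, with 76.6% A+T in the window printed above, beside a median of 65.2% over all IDR peaks.

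htl, the FGF receptor gene (FBgn0010389, 3R:18045216 to 18052984, minus strand), had 2 overlapping IDR peaks in its intron. They lie upstream of the inner of its 2 TSSs, at 18049366, with summits at 348 and 554 bp from it, 206 bp apart. The stronger, at 3R:18049605 to 18049778, had a signal of 156 in replicate 1 (rank 1733), 193 in replicate 3 (rank 1659) and 353 in the pooled list (rank 1571). The weaker, at 3R:18049708 to 18050131, had a signal of 70.5 in replicate 1, 92.9 in replicate 3 and 169 in the pooled list (rank 4271). Both were present in both replicates at similar ranks, with log2 differences of replicate 1 over replicate 3 of -0.31 and -0.40. The outer TSS of htl had a single entry 68 bp downstream, at rank 20123 with a signal of 39.4. The remaining entries of htl were at rank 20090 or weaker.

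how, which encodes the RNA-binding protein (FBgn0264491, 3R:22042191 to 22079321), had 2 IDR peaks and a further 13 pooled entries. The stronger peak, at 3R:22049180 to 22049432, lay in an intron 7135 bp downstream of the TSS. Its signal was 158 in replicate 1 (rank 1701), 212 in replicate 3 (rank 1444) and 368 in the pooled list (rank 1464). The other, at 3R:22039486 to 22039909, was intergenic, 2493 bp upstream of the TSS. It had a signal of 55.7 in replicate 1 (rank 6840), 125 in replicate 3 (rank 3058) and 191 in the pooled list, with a log2 of replicate 1 over replicate 3 of -1.17. No IDR summit lay at the promoter of how, where entries 391 and 165 bp upstream had ranks 9734 and 13097.

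Mef2, the myogenic factor gene (FBgn0011656, 2R:9913496 to 9958858, minus strand), held 8 of the 17 IDR summits. Over all protein-coding genes 1.12% had 8 or more IDR summits in such a window, and 5.64% of genes of 10 kb or longer. The strongest peak, at 2R:9959676 to 9960138, had a signal of 997 in replicate 1 (rank 30), 825 in replicate 3 (rank 84) and 1805 in the pooled list (rank 49). It lay 1043 bp upstream of the outermost TSS of Mef2, but it fell in an intron of Pal1, with the TSS of Pdrg1 only 169 bp away. By distance it is closer to the promoter of a neighbour than to any promoter of Mef2. The weakest but one of the 8, at 2R:9910634 to 9911057, was 47 bp from the start of the neighbour Etf-QO, a mitochondrial enzyme gene. Its signal was 115 in replicate 1 (rank 2751), 40.9 in replicate 3 (rank 10684) and 159 in the pooled list.

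The other 6 IDR summits of Mef2 lay inside the gene, 1780 to 6391 bp from its nearest own TSS. The strongest of these, at 2R:9942862 to 9943103, fell in an annotated untranslated region, with a signal of 163 in replicate 1, 246 in replicate 3 and 425 in the pooled list (rank 1170). The other 5 were intronic. The peaks with summits at 9949206, 9949487 and 9949735 formed a cluster with overlapping intervals, at spacings of 281 and 248 bp and pooled signals of 271, 156 and 186. The last 2 of these were matched by 1 entry of replicate 1, so they are not separate observations there. The peak at 2R:9935931 to 9936067 had a signal of 87.5 in replicate 1, 131 in replicate 3 and 228 in the pooled list. The peak at 2R:9954601 to 9955024 was the one most unequal towards replicate 1, with a signal of 150 in replicate 1 (rank 1839), 44.1 in replicate 3 (rank 9840) and 204 in the pooled list, a log2 difference of 1.77. At the TSSs of Mef2 itself entries were weak, such as that 63 bp upstream of the outermost one, with a signal of 56.0 in replicate 1, 34.7 in replicate 3 and 89.5 in the pooled list (rank 8515).

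twi, the bHLH gene that specifies the mesoderm (FBgn0003900, 2R:22985374 to 23048325), had 28 pooled entries and no IDR summit, though its strongest entry missed the IDR list narrowly. That entry had a pooled signal of 124.3, where the lowest IDR signal was 125.1, with 43.8 in replicate 1 and 79.0 in replicate 3. It ranked 6095, and entries at ranks 6439 and 6676 followed. The annotation gives twi a far TSS, 60734 bp upstream of a pair of TSSs that are 214 bp apart. Most of its gene body is therefore an intron, which holds CG9896 and CG42741 among other genes. The entries at ranks 6095 and 6676 lay in that intron, nearest to the TSS of CG9896, and that at rank 6439 lay 8642 bp upstream of the far TSS. Of the 28 entries, 1 was nearest to a TSS of twi. Around the near TSSs, from 10 kb upstream to 10 kb past the gene's end, the best pooled entry had rank 7683 and a signal of 99.2, and lay 625 bp from the TSS of Fatp2. The call depends on the list. Among the 6054 strongest entries twi had 2 in replicate 1, the best with a signal of 76.2 (rank 4673), and 4 in replicate 3, the best with a signal of 82.9 (rank 4974). These best entries were different sites, 8642 bp upstream of the far TSS in replicate 1 and 8533 bp downstream of the last one in replicate 3.

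sna, the zinc finger gene of the ventral mesoderm (FBgn0003448, 2L:15476593 to 15478260, minus strand), had 8 pooled entries with signals of 28.1 to 55.7 and ranks of 13728 or weaker. In replicate 1 it had no entry, and in replicate 3 it had 9, with signals of 20.8 to 43.4. The entry at its own promoter, 126 bp downstream of the TSS, had a pooled signal of 38.9 (rank 20468), with no entry in replicate 1 and a signal of 23.9 in replicate 3. The nearest IDR summit was 20742 bp from the gene, near lace.

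The share of members with an IDR summit at their own promoter was near the background. Those with one within 500 bp of an own TSS were tin and htl, 2 of 8, beside 23.0% of protein-coding genes. In the pooled relaxed list 6 of 8 had one within 500 bp, beside 44.0%. These were twi, sna, Mef2, tin, htl and how, with twi at exactly 500 bp. For twi, sna, Mef2 and how these promoter entries had pooled signals of 28.9 to 89.5. A TSS of any gene was within 500 bp of 6 of the 17 summits (35.3%), beside 47.0% of all IDR summits. In 12 of the 17 the nearest TSS was the member's own. Of all 17, 10 lay in introns, 6 between genes and 1 in an untranslated region. No shares over all IDR summits are given for these counts, so they only describe the 17. The median signal of the 17 was 228, close to the 223 of all IDR peaks, and 9 of the 17 were above 223. The count in the windows came to 0.548 IDR summits per 10 kb over 310 kb, beside 0.456 over the 5 major arms. For pooled entries it was 3.35 per 10 kb, beside 2.26. Of the 17 IDR summits, 8 lay in the 65.4 kb window of Mef2 and 3 members had none. The density of IDR summits is therefore not that of each member.

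All 17 of the members' peaks overlapped an entry of each replicate's relaxed list, as did 96.4% of all IDR peaks. The IDR set was derived from these lists, which include background. This overlap is therefore no independent sign of presence in both libraries. Of the 17, 12 overlapped entries among the 6054 strongest of both, 70.6% beside 69.2%. The signal was higher in replicate 1 for 5 of the 17 and in replicate 3 for 12, where over all IDR peaks with an entry in both 36.8% were higher in replicate 1. The median log2 of replicate 1 over replicate 3 was -0.40 for the 17 and -0.23 for all 5836 IDR peaks with an entry in both. The location of the peak moved with this. For the 6 members' peaks within 500 bp of a TSS the median was -0.03 and 3 were higher in replicate 1, beside -0.05 and 46.7% for all such peaks. For the 11 farther from a TSS it was -0.42 and 2 were higher in replicate 1, beside -0.51 and 28.2%. Signals of separate lists are on the peak caller's own scale and may differ in depth, whose part in these differences was not tested.

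**Figure D3:**
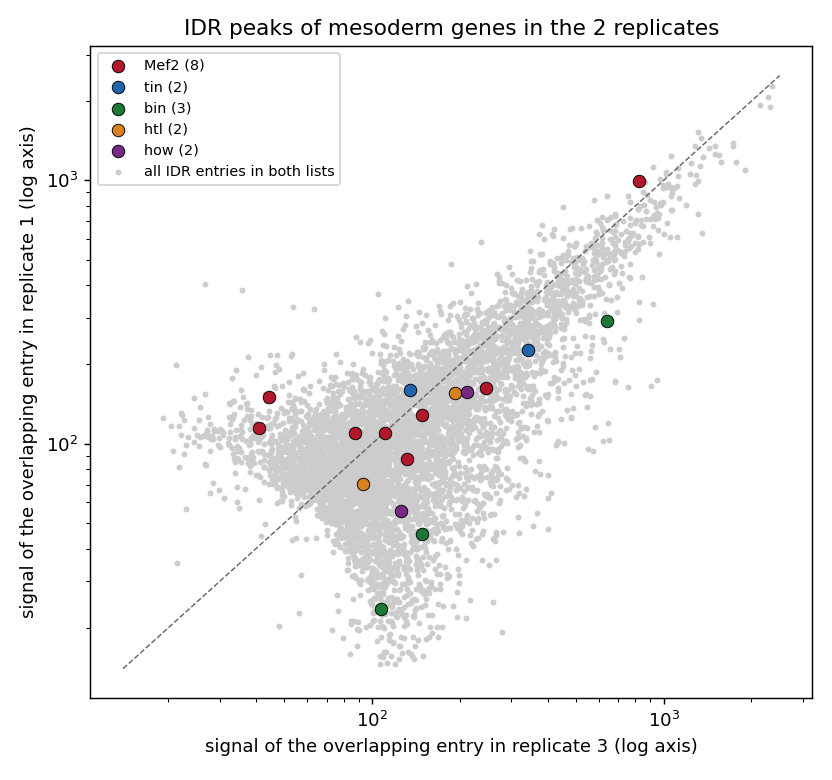
Signal of the entry that overlaps each IDR peak in replicate 1 (vertical, log axis) and in replicate 3 (horizontal, log axis), for the 17 peaks of the mesoderm genes in colour and for all 5836 IDR peaks with an entry in both lists in grey. The dashed line marks equal signal. The 3 bin peaks lie below the line, and 5 of the 17 peaks lie above it, 4 of them of Mef2 or of its neighbours and 1 in the mod(mdg4) intron upstream of tin.

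The words were counted at the 17 summits and over all IDR summits. TAATCC, the word of Bicoid, occurred in 0 of the 17 windows, each the summit with 100 bp on either side, which allows a share of up to 17.6% (counting error only), beside 6.74% of all 6054. The Twist E-boxes CATATG and CACATG occurred in 2 (Mef2 and tin) and 1 (Mef2), beside 7.53% and 7.28%. The Snail word CAGGTG occurred in 2 (Mef2 and how), beside 4.92%, and TCAAGTG in 1, the strongest bin peak, beside 3.55%. TAAACA, the forkhead word, occurred in 6 of 17, 35.3% beside 26.6%, with 4 of the 6 in Mef2 and 1 each in bin and htl. TATAAA occurred in 4 of 17, beside 35.3%, and CAGGTA in 1, beside 3.98%. The MEF2 box, TATCGATA and GGTCACAC occurred in none, beside 0.875%, 3.63% and 2.59%. The windows of the Mef2 cluster lie close together and are not independent. A+T content ranged from 52.7% to 76.6% with a median of 63.2%, beside 65.2% over all IDR summits. A word is a match of letters only.

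The share of further mesoderm genes with an IDR summit was also near the background. Of 39 further genes in 6 lists, 28 (71.8%) had an IDR summit in a window of the same kind, beside the 68.3% of all genes. Of the FGF pathway genes 2 of 3 did. stumps, the adaptor that acts with Htl, had its best peak 374 bp upstream of its own TSS (rank 824, signal 525), and ths, an FGF ligand gene, had one 1464 bp downstream of its TSS (rank 904, signal 499). The other ligand gene, pyr, had no IDR summit and a best rank of 7210. Of 6 early mesoderm genes 5 had a summit. Six4 was the strongest (rank 128, signal 1276), with a peak 53 bp from the TSS of its neighbour tzn. The others named by signal were dl and zfh1. The gene dl, which encodes the dorsoventral morphogen Dorsal, had a peak 488 bp from the TSS of lncRNA:CR44409 (rank 385). That of zfh1 lay 1460 bp upstream of its own TSS (rank 684, signal 586). Mes2 had none.

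Of 8 cardiac genes 6 had an IDR summit, with 12 distinct summits in all. The best were in the windows of the T-box gene Doc2 (rank 1585, signal 352), mid (rank 1814, signal 323) and Doc3 (rank 2257, signal 279). From the gene's own TSS they lay 6635 bp upstream, 15297 bp downstream and 6752 bp downstream. For mid and Doc3 another TSS was nearer, that of lncRNA:CR45287 at 9969 bp and that of CG5194 at 2110 bp. Hand and svp had none, and Hand had no pooled entry although its best entry ranked 4331 in replicate 1 and 2256 in replicate 3. The pooled list also held no entry for eve and Kr, of the muscle identity genes below. There, eve had entries in replicate 1 only (best rank 3878) and Kr in replicate 3 only (best rank 23593). Of 6 visceral mesoderm genes 4 had a summit, with slp1 and slp2 sharing the peak at rank 276 (signal 921). org-1, a T-box gene, had a peak 371 bp upstream of its own TSS (rank 367, signal 810), and Alk and hh had none. Of 9 muscle identity genes 5 had one, led by nau, the fly member of the MyoD family (rank 1116, signal 441), vg (rank 1401, signal 381, 210 bp from the TSS of Nmda1) and lmd (rank 2266, signal 278), while slou, lbe, eve and Kr had none. Of 7 myoblast fusion genes 6 had one, with 23 summits at the very long gene kirre (best rank 485, signal 697, 158 bp from the TSS of Syx4), then mbc (rank 702, 68 bp from the TSS of tst) and rols (rank 1722, 116 bp from that of Pop2). blow had none. At kirre, mbc, rols, vg and Six4 the best peak was thus near the TSS of another gene, as at Mef2. At stumps and org-1 the best peak was near the gene's own TSS. Of all IDR summits 47.0% lay within 500 bp of a TSS.

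**Figure D4:**
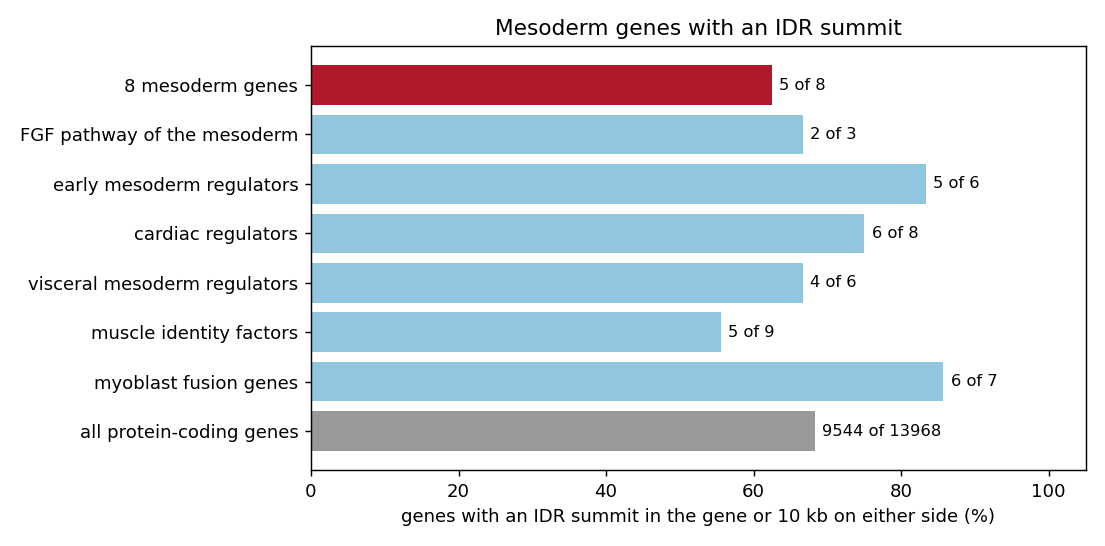
Bars give the percent of genes whose body or flanking 10 kb holds an IDR summit, starting at 0, with the counts written beside them. From top to bottom they are the 8 mesoderm genes (5 of 8), 6 lists of other mesoderm genes and all protein-coding genes (9544 of 13968), and shares of the small lists move by large steps with 1 gene.

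At the edge of the window the choice of 10 kb mattered in a few places. An IDR peak near CG1441 with a signal of 170 (rank 4245) lay 10004 bp from Mef2, 4 bp outside its window. One near Galphai with a signal of 126 lay 10521 bp from bin. The farthest IDR summits inside the windows were that of bin near lncRNA:CR46000, 8625 bp from the gene, and that of tin in mod(mdg4), 5381 bp away. With 5 kb on either side the same 5 members kept a summit, and with 20 kb twi gained 3 and bap 3, while sna still had none. The 3 of bap include the 2 IDR peaks already described for tin. The share of all genes is not given for these other widths, so these counts cannot be set beside a background.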

How the data were processed

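Peak lists on dm6 were used: the IDR-thresholded set, the pooled relaxed list and the relaxed list of each replicate. Per the deposited file descriptions the IDR set was derived from both replicate lists and the pooled list, so it is no independent average of the libraries. The authors' lists hold for each peak a summit, a signal and a -log10 q value. The deposited signal is a score whose scale is set by the caller and was used to rank. The -log10 q in the authors' lists was tied at 4.03 for all 17 peaks described. For aligner, peak caller and parameters, nothing is given in the sources used here. The dm3 lists and the control experiment were not used.

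Summits were placed with the Ensembl BDGP6.54 annotation (release 115), and sequences came from the RefSeq Release 6 genome, the same assembly. Coordinates count from 1. A replicate's value at a peak is that of the entry overlapping it by at least 1 bp with the nearest summit. Counts were made with Python 3.11.15 and pandas 2.3.3, and window counts and TSS distances were checked on simulated positions. The 8 genes, the other lists and the words were chosen with earlier results of these data known. All members, every IDR peak in their windows and the strongest 3 genes per list were named. All 39 further symbols were found, Mes4 as PolE4. Replicates are separate biosamples per the labels. Alternatives changed the window, the peak set, the promoter width, the overlap, and left out each replicate.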

Additional observations from a re-analysis of the deposited data

How the results depend on the processing

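Of 33 alternative counts, 27 were within 1.5 times the value given in the report. The number of members with an IDR summit was 5, but 3 with the gene body only (Mef2, htl and how) and 8 with all pooled relaxed entries. The number of IDR summits in the windows was 17, but 30 with 20 kb on either side, 9 with the gene body only and 9 among the 3027 strongest IDR entries. The number of members with a summit within 500 bp of an own TSS was 2, but 6 with all pooled relaxed entries. Without replicate 1 or without replicate 3, with the 6054 strongest entries of the remaining library, 6 members had an entry in each case, since twi then had 4 or 2. The share of all genes is not given for the gene body only or with a replicate left out. Those counts of members therefore cannot be set beside a background. No paired analysis was possible because there is 1 group. The depth of the libraries is unknown, so an entry missing at sna or bap in replicate 1 cannot be read as absence of binding, and no best rank could be given for them without replicate 3.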
